A study of Rattus norvegicus with 16 samples.

Results

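The proteasome genes of the rat liver were described in obese Zucker rats whose dietary protein was soy protein isolate (SPI) or casein (CAS). Members were the genes whose symbol begins with Psma, Psmb, Psmc, Psmd, Psme, Psmf or Psmg followed by a digit, other than Psmb8 and Psmb9, with a mean of at least 10 normalized reads over the 16 libraries. The rule took 38 of the 9645 genes in the table. They comprised 7 alpha subunits of the core (Psma), 6 beta subunits of the core (Psmb) and 6 ATPases of the regulatory particle (Psmc). The others were 12 Psmd genes, most of them non-ATPase subunits of the regulatory particle, 4 genes of activator proteins (Psme) and 3 assembly chaperones (Psmg). One further symbol of the pattern, Psmc3ip, which is not a proteasome subunit, had a mean of 5.84 and fell under the minimum. The members with the lowest means were Psme4 (39.1), Psmg2 (47.4) and Psmg1 (73.2). Genes of the family without an entry in the table were not analysed here.

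RNA sequencing was done on the livers of obese male Zucker rats, which were young when assigned to a diet and ate it freely for 16 weeks. The SPI group (8 libraries) received soy protein isolate rich in isoflavones as its dietary protein, and the CAS group (8 libraries) received casein. Each library came from 1 rat, every rat was of the obese genotype and male, and no lean or untreated group was included in these libraries. The obese Zucker rat carries a defective leptin receptor and overeats, so both diets were compared within a liver prone to fat accumulation. The libraries held 14901365 to 21517766 reads in the SPI group and 17602306 to 21632979 reads in the CAS group, summed over the genes of the table. Hepatocyte genes dominated every library, and 5 of 8 listed hepatocyte markers, albumin among them, were present. In whole liver, fewer cells of a type and less RNA per cell cannot be told apart.

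The proteasome degrades proteins that carry chains of ubiquitin. Its core is a barrel of stacked rings, with outer alpha rings that gate the entry and inner beta rings that cut the peptide chain at sites carried by Psmb5, Psmb6 and Psmb7. The regulatory particle caps the barrel, where Psmc ATPases unfold the substrate, Psmd4 is a ubiquitin receptor and Psmd14 removes the ubiquitin chain. Interferon gamma induces alternative catalytic subunits, among them Psmb10, which takes the place of Psmb7, and the activator ring made of Psme1 and Psme2. In the liver, proteasomes help to set the turnover of enzymes and of apolipoprotein B, and they supply peptides for antigen presentation.

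Promoter sequence is shown first for 5 members, because the ratio of Psmb10 to Psmb7 and the level of Psme2 are described in detail, and Psmb2 and Psmb5 carry another motif of the family. The sequences are the 120 bases before the annotated start, from RefSeq on the GRCr8 assembly, written 5′ to 3′ in the direction of the gene. Capitals mark the core of the interferon-stimulated response element (GAAANNGAAA) in Psmb10 and Psme2, the CCAAT box in Psmb7, and the core of the antioxidant response element (TGACNNNGC) in Psmb2 and Psmb5.
Psmb10: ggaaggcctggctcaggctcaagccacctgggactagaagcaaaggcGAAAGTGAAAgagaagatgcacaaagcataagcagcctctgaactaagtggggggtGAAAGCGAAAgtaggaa
Psme2: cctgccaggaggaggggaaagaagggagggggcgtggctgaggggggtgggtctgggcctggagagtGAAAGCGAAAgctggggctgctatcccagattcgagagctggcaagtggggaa
Psmb7: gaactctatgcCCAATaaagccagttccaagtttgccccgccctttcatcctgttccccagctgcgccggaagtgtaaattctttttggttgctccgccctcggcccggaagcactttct
Psmb2: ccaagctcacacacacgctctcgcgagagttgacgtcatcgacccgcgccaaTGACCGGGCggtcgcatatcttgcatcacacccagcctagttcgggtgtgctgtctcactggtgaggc
Psmb5: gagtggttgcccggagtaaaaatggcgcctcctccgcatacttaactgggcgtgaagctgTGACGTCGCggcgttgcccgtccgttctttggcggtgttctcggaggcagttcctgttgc
The windows lie at chr19:50743293-50743412 (minus strand) for Psmb10, chr15:33052752-33052871 (minus) for Psme2, chr3:42827471-42827590 (minus) for Psmb7, chr5:144254938-144255057 (plus) for Psmb2 and chr15:32047380-32047499 (minus) for Psmb5.

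The interferon-stimulated core began 73 and 17 bases before the start of Psmb10 and 53 bases before that of Psme2, and it had no match in the promoter of Psmb7. In Psmb2 a CCAAT box beginning 72 bases before the start shared 1 base with the antioxidant core. Promoters (250 bases before to 50 after the start) were matched for 34 of 38 members, and each motif was searched on both strands. GAAANNGAAA occurred in 6 of 34 member promoters (17.6%), against 3.32% of the 5574 promoters of genes tested and 3.77% of all 27457 promoters of the table. The other members with a match were Psma4, Psmb3, Psmd7 and Psmg4, which are not known as interferon-inducible, while the inducible Psme1 had none. A match was thus neither limited to inducible members nor present in all of them. The match began 234 bases before the start in Psma4, 143 in Psmb3 and 66 in Psmd7, and lay after the start in Psmg4. TGACNNNGC occurred in 7 of 34 (20.6%), against 14.8% and 12.2%, and CCAAT in 16 of 34 (47.1%), against 39.3% and 37.7%. The interferon-stimulated core was looked for after the values of Psmb10 were seen, and these matches are descriptions of letters, with no test.

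Expression was compared per gene with limma, two-sided, on log2(value + 1) after quantile normalization, over the 8004 genes that reached 10 normalized reads in 8 or more of the 16 libraries. All 38 members passed that filter. No member was higher in SPI and none was lower at a Benjamini-Hochberg adjusted p under 0.05, while 158 genes (1.97%) were higher and 232 genes (2.90%) were lower among all those tested, 4.87% in either direction. At an unadjusted p under 0.05 in limma, 4 of 38 members (10.5%) differed, of which 3 were higher (Psmd3, Psmd4 and Psme2) and 1 was lower (Psmd8), against 1507 of 8004 genes (18.8%). That count depended on the setting, with 4 higher and 0 lower as deposited (19.9% of all genes), 7 higher and 0 lower after upper-quartile scaling (19.9%), and 0 members with the replicate block (16.9%). On whole reads recovered from the values, edgeR called 0 members (432 of all genes, 5.40%) and DESeq2 called 0 (669 of all genes, 8.36%). Each had 3 members at an unadjusted p under 0.05, all higher in SPI. They were Psma2, Psmb7 and Psmc6 in edgeR, and Psma2, Psmb7 and Psme2 in DESeq2. Of the 4 members named for limma, only Psme2 was among them, and only in DESeq2. The study's own thresholds, an unadjusted p under 0.05 with a fold above 1.3, took 0 members against 478 genes higher and 540 genes lower. The diets overlapped for every member, and in the whole table they did not overlap for 72 genes (0.900%).

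**Figure D1:**
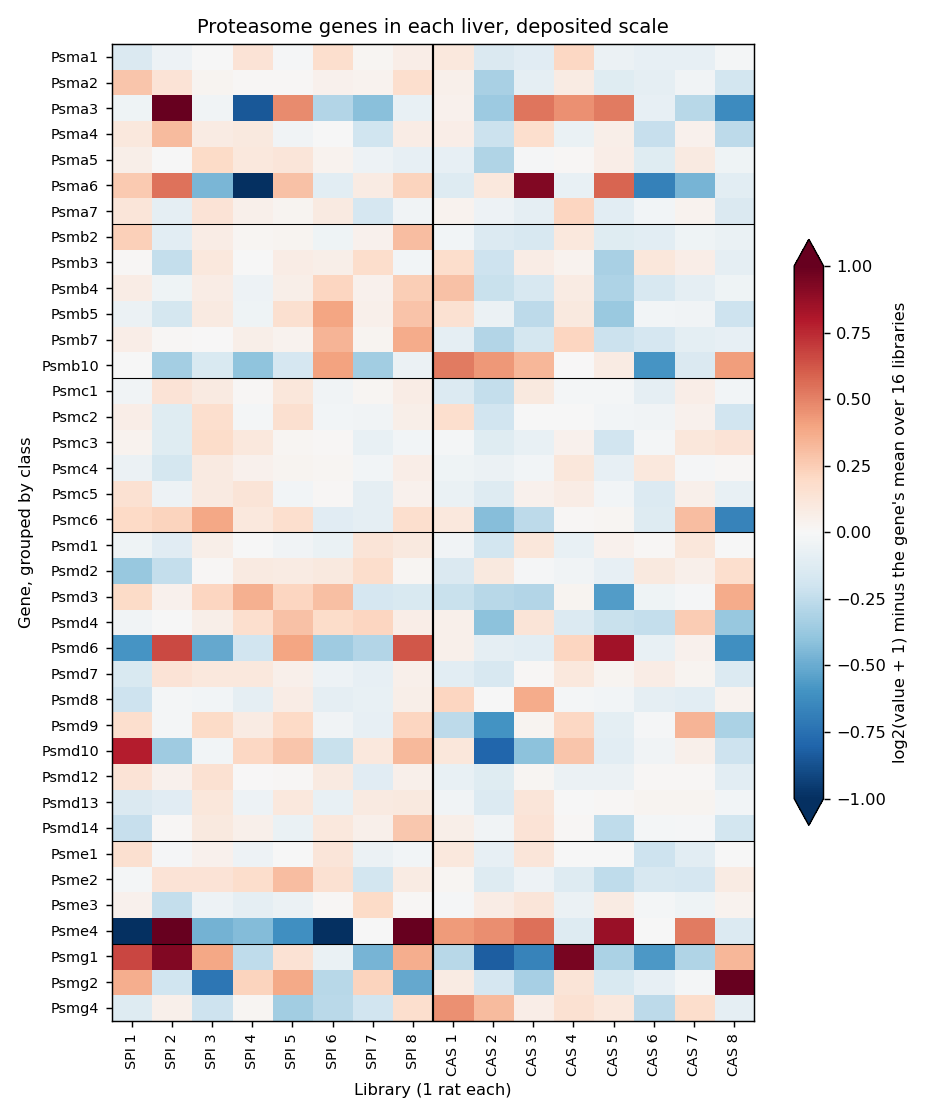
Level of each of the 38 proteasome genes in each library, as log2(value + 1) on the deposited scale minus the mean of the gene over the 16 libraries, with SPI rats 1 to 8 left of the line and CAS rats 1 to 8 right of it. Most of the map is near 0, and the strong colours belong to genes with few reads (Psme4, Psmg1, Psmg2, Psmd6 and Psmd10) and to Psma3 and Psma6.

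For most members the differences were small as well as uncalled. The 95% interval of the difference lay wholly within a 1.3-fold change in either direction for 24 of 38 members (63.2%), against 1691 of 8004 genes (21.1%). Genes with many reads are measured more precisely, and 24 members had a mean of at least 1000. Among those, 23 of 24 (95.8%) had an interval within 1.3-fold, against 705 of 1190 genes of that level (59.2%), and the exception was Psmc6. Among the 14 members with a mean under 1000 only Psme3 had, against 14.5% of genes at that level. The estimates of Psme4 (-0.53) and Psmg1 (0.47) lay beyond a 1.3-fold change, with wide intervals. Median log2 differences of SPI minus CAS were 0.01 for the alpha subunits, 0.07 for the beta subunits, -0.01 for the ATPases, 0.00 for the Psmd genes, -0.04 for the activators and -0.08 for the assembly chaperones. Over the 38 members the median was -0.01 (17 positive and 21 negative), and over all genes tested it was 0.01. The sign of the members' median depended on the scaling, and it was 0.05 (27 positive) with the values as deposited and 0.07 (28 positive) after upper-quartile scaling. The same shift was seen in all genes with a mean of at least 1000, whose median was 0.00 after quantile normalization, 0.09 as deposited and 0.10 after upper-quartile scaling.

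**Figure D2:**
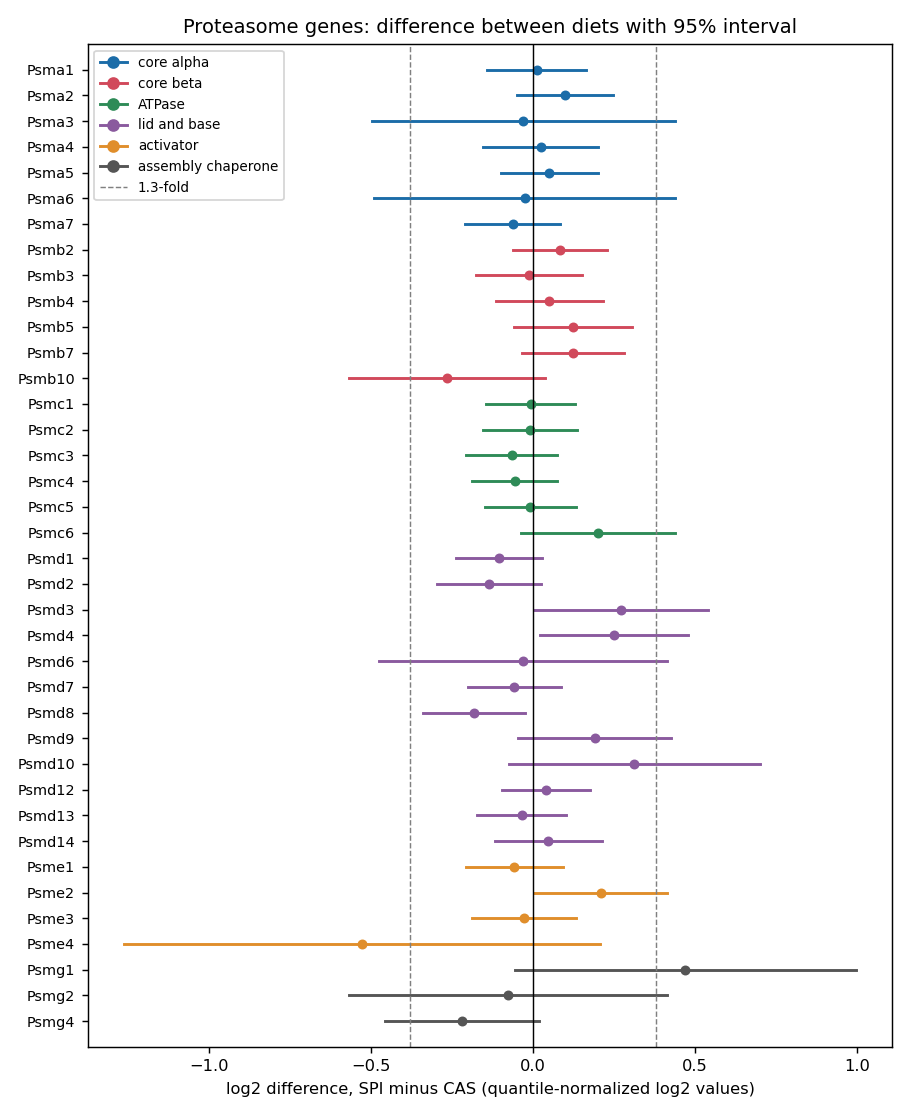
Difference between diets for each of the 38 proteasome genes, SPI minus CAS on quantile-normalized log2 values, with points for the limma estimate, bars for its 95% interval and dashed lines at a 1.3-fold change in either direction. In 24 genes the bar lies between the dashed lines, and the wide bars belong to Psma3, Psma6, Psmb10 and the genes with few reads.

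The alpha subunits build the outer rings, whose N-terminal tails close the gate of the barrel. Among them Psma2 had the smallest p, with normalized read counts (lowest, median, highest) of 2316, 2366 and 2789 in SPI livers, against 1842, 2160.3 and 2439.5 in CAS livers. Every SPI liver was above the CAS median, and the ranges overlapped. The difference was 0.10 on the log2 scale (SE 0.07, limma adjusted p = 0.487). With the values as deposited it was 0.18 (limma adjusted p = 0.173). Psma7 had 2323, 2682 and 2865 in SPI livers, against 2365, 2538 and 3019.6 in CAS livers, a log2 difference of -0.06 (SE 0.07, limma adjusted p = 0.677). Psma5 had 1757, 1919 and 2124 in SPI livers, against 1511, 1821 and 1979 in CAS livers, a log2 difference of 0.05 (SE 0.07, limma adjusted p = 0.763). The ranges of the diets lay largely on top of each other for Psma7 and overlapped in part for Psma5. The log2 differences of Psma1, Psma3, Psma4 and Psma6 were between -0.03 and 0.02.

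Psmb10 and Psmb7 moved in opposite directions by sign. Psmb10 is the interferon-inducible counterpart of Psmb7, and both carry the trypsin-like site of the beta ring. Psmb10 had normalized read counts of 552, 653 and 963 in SPI livers (lowest, median, highest), against 484, 845 and 1047 in CAS livers. All SPI livers but SPI 6 were below the CAS median, and the CAS livers spread from the lowest to the highest value of the set. The log2 difference of Psmb10 was -0.27 (SE 0.15, 95% interval -0.57 to 0.04, limma adjusted p = 0.331).

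Psmb7 had 2719.6, 2801 and 3518 in SPI livers, against 2218, 2478 and 3148 in CAS livers. Every SPI liver was above every CAS liver except CAS 4. The log2 difference of Psmb7 was 0.12 (SE 0.08, 95% interval -0.03 to 0.28, limma adjusted p = 0.397) after quantile normalization. With the values as deposited it was 0.23 (limma adjusted p = 0.112), and the lowest adjusted p in any setting was 0.0926, after upper-quartile scaling. Psmb5, the chymotrypsin-like site, had 1888, 2237 and 2803 in SPI livers, against 1651, 2064 and 2369.7 in CAS livers, a log2 difference of 0.12 (SE 0.09, limma adjusted p = 0.478). Its ranges overlapped over most of their length. The log2 differences of Psmb2, Psmb3 and Psmb4 were between -0.01 and 0.08.

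A ratio taken within a library does not depend on the size factor of that library, and 3 ratios were tested. The log2 ratio of Psmb10 to Psmb7 averaged -2.14 ± 0.19 in SPI livers and -1.65 ± 0.42 in CAS livers (SD, n = 8 each), so that the ratio was 0.711-fold in SPI relative to CAS. The difference of -0.49 had p = 0.0121 in an exact two-sided permutation test, and 0.0364 adjusted over the 3 ratios. All 8 SPI livers were below the CAS median. The SPI livers lay between -2.35 and -1.84, and 3 CAS livers lay within that range (CAS 4 at -2.10, CAS 6 at -2.32 and CAS 7 at -1.94), while the other CAS livers were between -1.60 and -1.17. The ratio was lower in SPI livers on average, with a part of the CAS livers at the SPI level, and the difference in spread was not tested. After quantile normalization the difference was -0.39 (exact permutation p = 0.0322, adjusted 0.0483). When 1 library was left out it was -0.59 to -0.42 (exact permutation p = 0.00264 to 0.023), and the adjusted p, at 0.00793 to 0.069, passed in 8 of the 16 settings and missed in the other 8 (without SPI 2, SPI 4, SPI 5 or SPI 8, and without CAS 1, CAS 2, CAS 3 or CAS 5). With the replicate block the adjusted call was lost (exact p = 0.0312, adjusted 0.0938). Without the libraries numbered 2 and 8 of both diets, which break the order of lane or sheet numbers in the labels, the difference was -0.32 and passed neither way (exact permutation p = 0.123, adjusted 0.185).

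**Figure D3:**
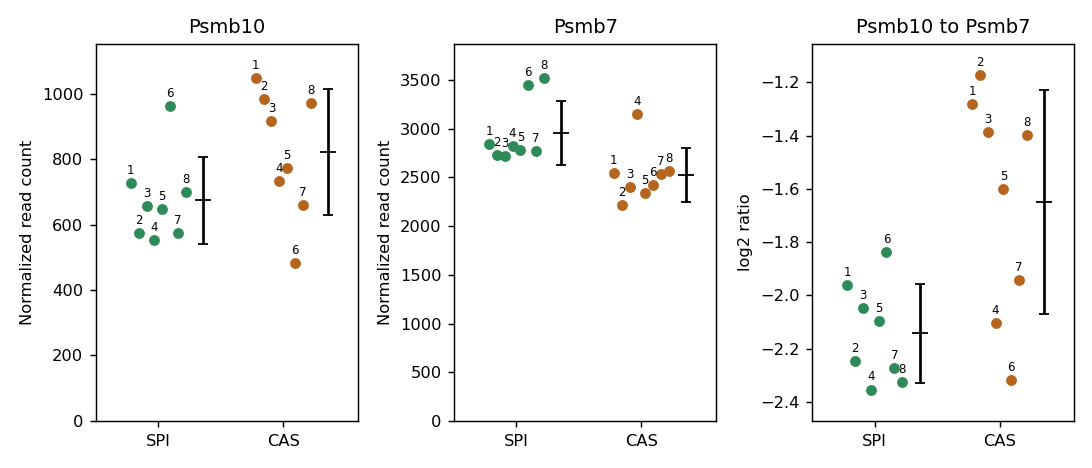
Normalized read counts of Psmb10 and Psmb7 (axes from 0) and the log2 ratio of Psmb10 to Psmb7 in each liver, with SPI left of CAS, points numbered by rat, and bars for the mean and SD. All 8 SPI livers lie below the CAS median of the ratio, and CAS 4, CAS 6 and CAS 7 lie among them.

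Because Psmb10 is also expressed by immune cells, marker levels were set beside the ratio. The summed level of the Kupffer cell and macrophage markers was 3081 to 5694 in SPI livers and 3841 to 6016 in CAS livers, with 6 of 8 listed genes tested and 0 called by limma (2 higher in SPI at an unadjusted p under 0.05). The lymphocyte and leukocyte markers summed to 0 to 32.1 in SPI livers and 9.15 to 24.6 in CAS livers, with 2 of 8 genes in the table and 1 of them tested. The 5 stellate and fibroblast markers tested all had negative differences (median log2 -0.76), with 0 called by limma and 3 at an unadjusted p under 0.05, and summed to 3169 to 5629 in SPI livers and 3739 to 5900.2 in CAS livers. The endothelial markers (6 tested) had a median of 0.19 and 0 called, with Lyve1 highest at 0.66 (limma adjusted p = 0.0937), and summed to 2067 to 4345 in SPI livers and 899 to 3777 in CAS livers. The macrophage sums rested largely on Clec4f, at up to 4185 in SPI and 4030 in CAS livers. The stellate sums rested largely on Col3a1, at up to 5108 and 5375. These sums therefore say little of the other markers. The part of these cell types in the ratio was not tested.

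The genes of the same antigen-processing route moved in both directions, and the calls of genes higher in SPI depended on the scaling. The list of immunoproteasome and peptide loading genes includes the members Psmb10, Psme1 and Psme2. Of its 14 genes tested, 10 had a negative difference and 4 a positive one, and the median was -0.19. At an unadjusted p under 0.05 in limma, 4 were lower and 1 was higher (35.7%), against 18.8% of all genes. After adjustment limma called 2 lower and 0 higher, against 2.90% and 1.97% of all genes. With the values as deposited the same 2 were lower, and 2 genes were called higher: Calr, a chaperone of the endoplasmic reticulum, at 0.31 (limma adjusted p = 0.0106) and Pdia3, its disulfide isomerase partner, at 0.29 (limma adjusted p = 0.0229). Both were also called with upper-quartile scaling, edgeR and DESeq2, and after quantile normalization they were at 0.05 and 0.07. Tap1, a subunit of the peptide transporter into the endoplasmic reticulum, had 329, 424 and 601 in SPI livers against 499.9, 649 and 849.7 in CAS livers, a log2 difference of -0.54 (limma adjusted p = 0.0299). Tapbp, which bridges that transporter and class I molecules, had 584, 862 and 1223 in SPI livers against 1144, 1369.96 and 1812 in CAS livers, a log2 difference of -0.66 (limma adjusted p = 0.0044). In both genes the lower part of the CAS range met the upper part of the SPI range. Without the libraries numbered 2 and 8 neither was called (limma adjusted p = 0.216 for Tap1 and 0.0773 for Tapbp), and Tap1 was also lost with the replicate block, at 0.119, and in 7 of the 16 settings that left out 1 library. The inducible subunits outside the membership rule were not called, with log2 differences of -0.12 for Psmb8 (limma adjusted p = 0.734) and -0.58 for Psmb9 (limma adjusted p = 0.154). Promoters were matched for 11 of these 14 genes, and GAAANNGAAA occurred in 6 of them, against 3.32% of the promoters of genes tested. Those with it were Psmb8, Psmb10, Psme2, Tap1, Tapbp and B2m, and those without it were Psmb9, Psme1, Irf1, Calr and Tapbpl.

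The ATPases form the ring that unfolds substrates and pushes them into the core. Psmc6 had 1845, 2237 and 2606 normalized reads in SPI livers (lowest, median, highest), against 1254, 1921 and 2464 in CAS livers. The CAS livers reached lower, with CAS 8 lowest, and the upper parts of the ranges coincided. Its log2 difference was 0.20 (SE 0.11, 95% interval -0.04 to 0.44, limma adjusted p = 0.355). With the values as deposited it was 0.26 (limma unadjusted p = 0.0337, adjusted p = 0.209). Psmc3 had 2770.1, 3056 and 3429.8 in SPI livers against 2647, 2979 and 3314 in CAS livers, a log2 difference of -0.07 (SE 0.07, limma adjusted p = 0.648). Psmc4 had 1746, 1999.9 and 2093 in SPI livers against 1857, 1947 and 2136 in CAS livers, a log2 difference of -0.06 (SE 0.06, limma adjusted p = 0.676). These 2 ATPases barely moved, and Psmc1, Psmc2 and Psmc5 had a log2 difference of -0.01 each, so that the 6 ring partners of 1 complex included 5 whose intervals lay within a 1.3-fold change.

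Most Psmd genes encode parts of the base and lid of the regulatory particle, including scaffolds, ubiquitin receptors and the deubiquitinase. Psmd8, a lid subunit, had 2294, 2554 and 2794 in SPI livers, against 2464, 2626 and 3430.4 in CAS livers. It was lower than the CAS median in 6 of 8 SPI livers, and the upper end of the CAS range was set by CAS 3. The log2 difference was -0.18 (SE 0.08, limma unadjusted p = 0.0247, adjusted p = 0.183), and as deposited it was -0.09 (limma adjusted p = 0.541). Psmd4, the ubiquitin receptor also known as Rpn10, had 286, 318 and 359 in SPI livers, against 220.4, 259 and 349.8 in CAS livers. All 8 SPI livers were above the CAS median, with CAS 1, CAS 3 and CAS 7 in the SPI range. The log2 difference was 0.25 (SE 0.11, limma unadjusted p = 0.0344, adjusted p = 0.221). Psmd3, a lid scaffold, had 274, 353 and 392 in SPI livers against 208, 280.3 and 397 in CAS livers, a log2 difference of 0.27 (SE 0.13, limma unadjusted p = 0.0474, adjusted p = 0.258). Its highest liver was CAS 8, and the whole SPI range lay inside the CAS range. The largest scaffolds, Psmd1 and Psmd2, had log2 differences of -0.11 and -0.14, and Psmd14, the deubiquitinase, had 0.05. The other Psmd genes were between -0.06 and 0.31, the highest being Psmd10 (gankyrin, an assembly chaperone of the base), with a mean of 107 reads and an interval of -0.07 to 0.70.

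The activators replace the regulatory particle at the end of the barrel. Psme2, the beta chain of the interferon-inducible PA28 ring, had 249, 311 and 350.0 in SPI livers, against 237, 259 and 300.1 in CAS livers. It was above the CAS median in 7 of 8 SPI livers, and the ranges overlapped. The log2 difference was 0.21 (SE 0.10, limma unadjusted p = 0.0468, adjusted p = 0.256). Its partner Psme1, the alpha chain, had 4007, 4157 and 4675 in SPI livers against 3617, 4166 and 4539 in CAS livers, a log2 difference of -0.06 (SE 0.07, limma adjusted p = 0.710). The medians of Psme1 were nearly equal in the diets. The log2 ratio of Psme1 to Psme2 averaged 3.80 ± 0.16 in SPI livers and 3.95 ± 0.11 in CAS livers (SD, n = 8 each), a difference of -0.15 with an exact permutation p = 0.0499, which was 0.0748 adjusted over the 3 ratios and 0.109 before adjustment with the replicate block. After quantile normalization the difference was -0.27, the clearest of the 3 ratios on that scale (exact permutation p = 0.00668, adjusted 0.02), so the call depended on the scaling. When 1 library was left out on the deposited scale, the adjusted p passed in 3 of 16 settings. The log2 ratio of Psme1 to Psme3, the nuclear PA28 homologue, differed by 0.09 (exact permutation p = 0.169, adjusted 0.169), and by -0.03 after quantile normalization. The interferon-stimulated core in the promoter of Psme2 stood beside a higher level by sign, and that of Psmb10 beside a lower one. Neither difference was called, and the part of the motif in these levels was not tested.

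Psme4 (PA200), an activator known from the nucleus and from spermatogenesis, was the member with the lowest mean. It had 7.67, 24.4 and 83.8 normalized reads in SPI livers, against 30.6, 46.2 and 62.0 in CAS livers. The SPI livers held both the lowest and the highest values, with SPI 2 and SPI 8 above every CAS liver and 5 SPI livers below every CAS liver. The log2 difference was -0.53 (SE 0.35, 95% interval -1.26 to 0.21, limma adjusted p = 0.446). It was -0.64 as deposited and -0.33 in both edgeR and DESeq2, and it was not called in any of them. The SPI libraries held 6 to 65 reads of Psme4. Without the libraries numbered 2 and 8, SPI 2 and SPI 8 among them, Psme4 had the lowest adjusted p of the members (limma adjusted p = 0.118). The SD of its log2 values was 1.02 within SPI and 0.35 within CAS, a contrast that was not tested. Psme3 (the nuclear PA28 gamma) had a log2 difference of -0.03.

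The assembly chaperones help the alpha and beta rings to form and are not parts of the finished particle. Psmg1 had 49.0, 81.5 and 130.2 normalized reads in SPI livers, against 37.9, 54.6 and 132 in CAS livers, a log2 difference of 0.47 (SE 0.25, limma adjusted p = 0.320). Psmg2, with which Psmg1 forms a pair, had 27.05, 46.3 and 59.3 in SPI livers, against 35.8, 43.7 and 95.9 in CAS livers, a log2 difference of -0.08 (SE 0.24, limma adjusted p = 0.899). Psmg4 had 191, 218 and 273 in SPI livers, against 203, 266 and 334 in CAS livers, a log2 difference of -0.22 (SE 0.11, limma adjusted p = 0.304). The ranges of the diets overlapped for all 3, and their intervals all reached beyond a 1.3-fold change.

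Spread among rats of 1 diet was low for most members. The SD of log2 values within diets had a median of 0.13 over the 38 members and 0.40 over all genes tested. At a mean of at least 1000 the medians were 0.11 over members and 0.19 over all genes of that level. The SD was higher in CAS than in SPI for 25 of 38 members (65.8%), against 53.6% of all genes tested. Psmc4 had the least spread of the members, at 0.06, and Psme4 the most, at 0.76.

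**Figure D4:**
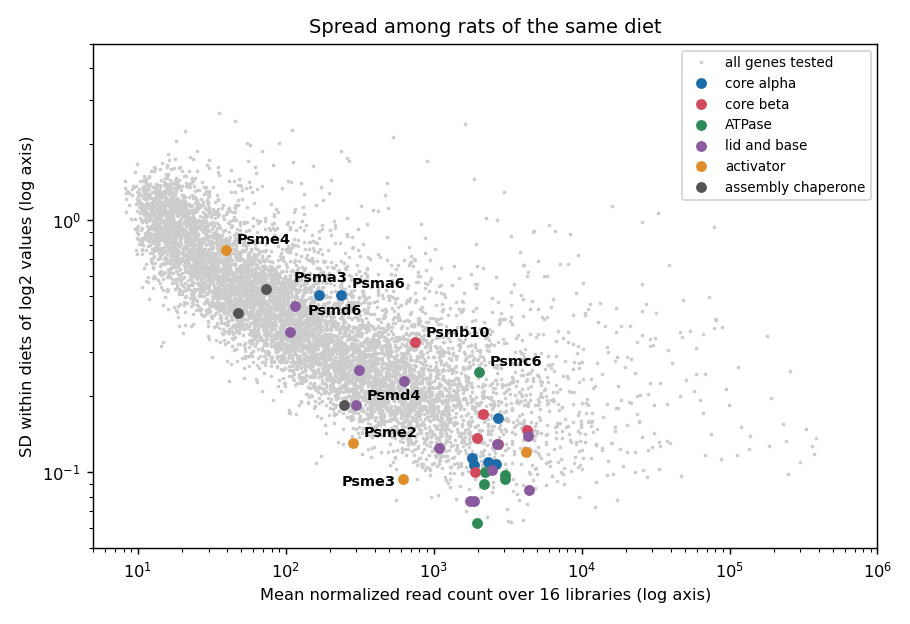
SD of quantile-normalized log2 values within diets against the mean normalized read count over the 16 libraries, both on log axes, with grey points for all 8004 genes tested and coloured points for the 38 proteasome genes by class. Most members with a mean above 1000 lie along the lower edge of the cloud, and Psma3 and Psma6 lie well above the other alpha subunits.

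Psma3 and Psma6, chosen here after their values were seen, had larger coefficients of variation than the other alpha subunits in both diets. Psma3 had 88.0, 153 and 325 normalized reads in SPI livers, against 103, 157 and 231 in CAS livers, a coefficient of variation of 44.1% in SPI and 30.2% in CAS. Psma6 had 110.0, 248 and 325 in SPI livers, against 139, 209 and 424 in CAS livers, with coefficients of 29.7% and 39.4%. In SPI and CAS livers the spread was 5.47 and 4.13 times the counting SD for Psma3, and 4.31 and 6.42 times for Psma6. Psma4 was at 5.19 and 5.96 times. Psma1, Psma2, Psma5 and Psma7 were at 2.69 to 3.62 times in SPI and 3.67 to 4.34 times in CAS livers. Counting error alone would give coefficients of variation of 8.05% and 7.31% for Psma3, and 6.88% and 6.13% for Psma6. In both Psma3 and Psma6, SPI 2 was the highest and SPI 4 the lowest of the SPI livers. The highest CAS liver was CAS 3 in both, by a narrow margin over CAS 5 in Psma3. Neither gene differed between diets, with log2 differences of -0.03 in each and intervals of -0.50 to 0.44 for Psma3 and -0.49 to 0.44 for Psma6. RefSeq names 2 pseudogenes of Psma3 and 5 of Psma6, and 18 of the 38 members have a named pseudogene or like gene (44 pseudogenes and 5 like genes in all). Reads that fit both a gene and its copy could have been split or dropped in the authors' counting, so the levels of these 18 are uncertain. Psmb3 had the most named copies (7 pseudogenes and 3 like genes), with coefficients of variation of 8.11% in SPI and 11.5% in CAS livers. The part of such copies in the spread was not tested. The values are not per length, and levels were not compared between genes.

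The members moved together only weakly from rat to rat. After the diet means were removed, the median Pearson correlation over the 703 pairs of members was 0.09 over the 16 libraries, against 0.00 over pairs of all genes. It was 0.01 within SPI livers and 0.15 within CAS livers (8 libraries each), as a description of values that share libraries and scaling. Over the 24 members with a mean of at least 1000 it was 0.12 over both diets, -0.02 within SPI and 0.20 within CAS livers. Over pairs of all genes of that level it was -0.001, 0.002 and -0.002. Per library, the median deviation of the 38 members on the deposited log2 scale lay between -0.03 and 0.08 in SPI livers and between -0.14 and 0.04 in CAS livers, with CAS 2 lowest. The members took 0.321% to 0.368% of all reads in SPI libraries and 0.351% to 0.397% in CAS libraries.

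Upstream and downstream of the proteasome, few genes of the pathway lists were called by limma. Ubiquitin genes and activating enzymes (3 tested, median log2 difference 0.04), ubiquitin-conjugating enzymes (18 tested, -0.04), proteasome-bound proteins without a Psm symbol (8 tested, 0.06), shuttle factors (6 tested, -0.05) and regulators of proteasome gene transcription (6 tested, -0.11) had 0 called, of which 0, 1, 1, 1 and 0 genes were at an unadjusted p under 0.05 in limma. The smallest adjusted p among them belonged to Ube2z, a conjugating enzyme, at -0.33 (limma adjusted p = 0.0917), which DESeq2 called (adjusted p = 0.043). The next was Rad23b, a shuttle that carries ubiquitinated proteins to the proteasome, at -0.19 (limma adjusted p = 0.0976), and as deposited at -0.08. Vcp, which encodes p97, an ATPase that extracts ubiquitinated proteins from membranes and complexes, differed by -0.20 after quantile normalization (limma adjusted p = 0.0781) and by 0.00 as deposited.

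Among the downstream peptidases, which trim proteasome products to amino acids, 1 of 7 genes tested was called lower, 0 higher, and the median was -0.25. Over all genes tested, 2.90% were called lower and 1.97% higher. At an unadjusted p under 0.05 in limma, 3 of the 7 were lower and 0 higher (42.9%), against 18.8% of all genes. Blmh, bleomycin hydrolase, had 587, 737 and 893 normalized reads in SPI livers, against 805, 943 and 1137 in CAS livers, a log2 difference of -0.37 (limma adjusted p = 0.0346). The ranges met only where the highest SPI livers reached the lower CAS livers. The call was lost without the libraries numbered 2 and 8 (limma adjusted p = 0.142), with the replicate block (0.0719) and in 9 of the 16 settings that left out 1 library. Prep, prolyl endopeptidase, differed by -0.25 (limma adjusted p = 0.143).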

How the data were processed

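Livers of 8 SPI and 8 CAS rats were compared. The deposited signal values are gene read counts scaled by the authors with a size factor for every library, and whole reads were recovered from 100% of them (tolerance 0.05). The authors' log2 fold changes and standard errors, a score column (Wald statistic) and p-value columns are also deposited and were not used. The submitters' processing notes name Rnor_6.0, DESeq2 and FastQC, while the methods of the study give log2, quantile-normalized RPM from CLC Genomics Workbench and version 4 of the assembly. Members and gene lists were chosen with earlier results of these data known. R 4.3.3, limma 3.58.1 (trend and robust), edgeR 4.0.16, DESeq2 1.42.0 and scipy 1.17.1 were used, with a pseudocount of 1 and the Benjamini-Hochberg adjustment over 8004 genes. Values were given for the 3 members of smallest p in each class, for the assembly chaperones and, in the pathway lists, for called genes or those of smallest p. The limma p-values set the difference between diets against the spread among rats of the same diet. The exact permutation p-values set it against the differences found when diet labels were exchanged. On simulated data with 7849 genes, the limma steps called 1 of 50 genes changed 1.2-fold, 17 of 50 at 1.5-fold, 35 of 50 at 2-fold and 48 of 50 at 4-fold, with 1 wrong call. The changed genes were drawn at random from genes above a low minimum level, so these counts are not recovery rates for the members. Same-numbered libraries share a lane code in the labels, but their residuals correlated at -0.0950 to 0.0682, so the replicate number was a block in an alternative only. The other alternatives were scaling, pseudocount, filter, count models and left-out libraries. Depth limits genes with few reads, and reads without molecular identifiers are not independent molecules. One result of the pathway lists is not reported here.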

Additional observations from a re-analysis of the deposited data

Results flagged for a closer look

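In 5 of 76 groups looked at (38 members in 2 diets), 1 library stood apart from the other 7 of its diet by Dixon's limit for 8 samples, and chance alone marks about 1 in 20 groups. All 5 were high values. Psma7 was 3019.6 normalized reads in CAS 4, against at most 2674 in the other CAS livers. Psmb7 was 3148 in CAS 4, against at most 2565 in the other CAS livers, which is the liver that made the diets overlap. Psmb10 was 963 in SPI 6, against at most 728 in the other SPI livers. Psmd6 was 198 in CAS 5, against at most 128 in the others, and Psmg2 was 95.9 in CAS 8, against at most 49.7 in the others.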

How the results depend on the processing

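No proteasome gene was called in either direction under any alternative, the lowest adjusted p being 0.0916 (Psmb10 without CAS 6). The number of members with an interval within a 1.3-fold change, a count added after the data were seen, was 22 to 25 over the limma settings. The members' median log2 difference of -0.01 became 0.055 as deposited, 0.053 with DESeq2, 0.057 with edgeR and 0.069 with upper-quartile scaling. Genes higher over the whole table, 158, became 308 with DESeq2, 255 with upper-quartile scaling (against 222 lower), 97 with the replicate block, 45 without the libraries numbered 2 and 8, and 98 to 202 when 1 library was left out. Genes lower, 232, became 361 with DESeq2, 149 with the replicate block, 67 without the libraries numbered 2 and 8, and 135 to 287 when 1 library was left out; the counts moved most without CAS 1, CAS 2, CAS 3, CAS 5, SPI 3 or SPI 6. The log2 ratio of Psmb10 to Psmb7 was -0.49 with the replicate block (exact p = 0.0312, adjusted over the 3 ratios 0.0938, which ended the adjusted call), -0.59 to -0.42 when 1 library was left out (adjusted call lost in 8 of 16), and -0.32 without numbers 2 and 8 (exact p = 0.123). That of Psme1 to Psme2 grew to -0.27 after quantile normalization (exact p = 0.00668, adjusted 0.02), and lost its unadjusted call at -0.15 with a pseudocount of 8 (exact p = 0.0531), -0.16 without numbers 2 and 8 (exact p = 0.0952), -0.15 with the replicate block (exact p = 0.109) and in most settings that left out 1 library (-0.19 to -0.12). That of Psme1 to Psme3 was -0.030 after quantile normalization, and 0.064 to 0.13 when 1 library was left out, with an exact permutation p of 0.0191 without SPI 7. The causes of these changes were not tested. The replicate block changed the call of no member. A filter at 50 left 36 members tested.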
